A study of Mus musculus with 6 samples.

Results

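Gene expression in brain was compared between 2 samples in which Pofut1 had been deleted with Nestin-Cre and 2 Flox control samples, each read on 1 array, which are 4 of the 6 arrays in the series. All mice were C57/Bl6 and 2 months old, and the labels list no treatment. Knockout mice (Nestin cre, Pofut1 flox/flox) carried the Cre transgene and 2 floxed Pofut1 alleles. Flox control mice (Pofut1 flox/flox) carried 2 floxed alleles and no Cre. Because the floxed alleles stand on both sides, the groups differ in the Cre transgene and in the deletion together, and these cannot be told apart by this pair of groups. The other 2 arrays are NestinCre controls, which carried the transgene and wild-type Pofut1. They shared the estimate of the spread in the test, and their values are given beside the results. The labels do not say which Nestin-Cre line was used or whether a sample is 1 brain or a pool.

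Pofut1 encodes an enzyme of the endoplasmic reticulum that attaches fucose to EGF-like repeats of secreted and membrane proteins, the Notch receptors among them. Notch receptors are cut after they bind Delta or Jagged ligands on a neighbouring cell, and the freed intracellular part joins the DNA-binding protein RBPJ to switch on target genes such as those of the Hes and Hey families. In the brain the pathway maintains neural stem cells, shapes astrocytes and, in vessel walls, keeps pericytes and smooth muscle cells in place. Nestin-Cre acts mainly in neural progenitors, so neurons, astrocytes and oligodendrocytes that descend from them carry the deletion. The series was made to study how loss of Pofut1 affects adult neural progenitors, while the RNA came from all cells of the brain sample.

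Each array gave a log2 intensity for 45037 probe sets, and array medians lay between 7.32 and 7.36. The 2 Flox arrays correlated at 0.994 and the 2 knockout arrays at 0.993, while knockout and Flox arrays correlated at 0.985 to 0.993. The highest correlation of all pairs was 0.995, between knockout replicate 1 and NestinCre replicate 2. Knockout replicate 2 correlated with NestinCre replicate 1 at 0.993, so the arrays did not pair by genotype alone. Neuronal Snap25, astrocytic Slc1a2 and the myelin gene Mbp were brighter than at least 99.4% of probe sets. By Xist and the Y-linked Eif2s3y, knockout replicate 1 and NestinCre replicate 2 were male and the other 4 arrays female. The pituitary hormones Gh and Prl were high in both Flox arrays, as described at the end of the results. The knockout pair and the NestinCre pair therefore come from different animals. For the Flox pair neither the labels nor sex show this, so its spread may be technical. Its 2 arrays differed in Prl, at 7.28 and 9.58, and in Gh, at 7.87 and 9.40. Whether they come from different animals was not tested.

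Pofut1 was lower in both knockout arrays. Its brightest probe set read 9.95 and 9.81 in the Flox arrays, 9.25 and 9.44 in the knockout arrays and 9.84 and 9.77 in the NestinCre arrays on the log2 scale. Both knockout values lay below all other arrays. The difference of -0.54 (SE 0.09) is a level 1.45-fold lower in knockout, and it did not pass over all probe sets (limma adjusted p = 0.142). The dimmer probe sets differed by -0.33 (SE 0.09) and -0.14 (SE 0.08). Where the probes lie relative to the deleted exons was not examined here, so the residual signal does not measure how many cells kept the gene.

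Across all probe sets, 2 passed at a Benjamini-Hochberg adjusted p under 0.05, which is 0.00444% of those tested, and both fell. They belong to Rgs5, a regulator of G protein signalling that is abundant in pericytes, and to the RIKEN transcript 2900052N01Rik. At an unadjusted p under 0.05 there were 7179 probe sets, or 15.9%, of which 3732 were higher (8.29% of those tested) and 3447 lower (7.65%). With arrays centred on their medians the balance turned, to 3281 higher and 4139 lower. For comparison, that threshold was met by 4693 probe sets between the NestinCre and Flox controls, which share the Flox arrays with the present comparison. The 2 knockout arrays lay beyond both Flox arrays with an at least 2-fold difference for 158 probe sets that were higher (0.351%) and 57 that were lower (0.127%). This excess of higher probe sets was 96 against 61 with sex as a covariate, and with 1 probe set per gene it was gone, at 33 higher and 32 lower. Of the 158, 93 had no gene symbol (58.9%), against 2 of the 57 (3.5%) and 20.3% of all probe sets tested.

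**Figure D1:**
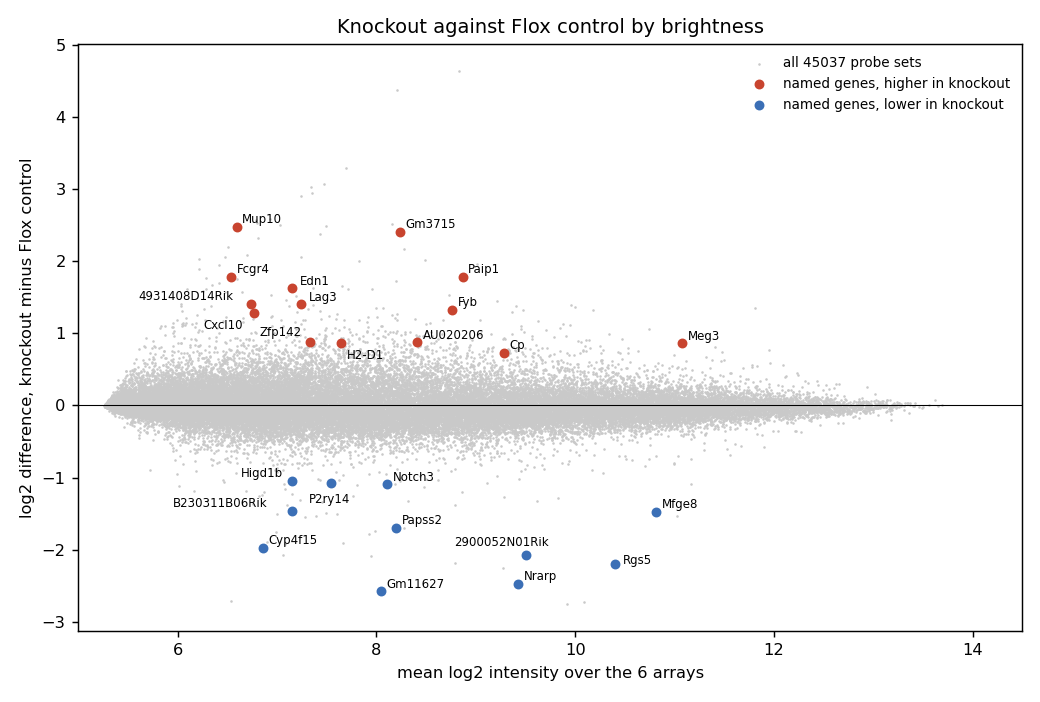
Each grey point is a probe set, with its mean log2 intensity over the 6 arrays on the horizontal axis and its log2 difference, knockout minus Flox control, on the vertical axis; coloured points are the named genes. The 2 probe sets past the threshold, of Rgs5 at -2.19 and 2900052N01Rik at -2.08, lie among bright probe sets far below the cloud, while several named genes higher in knockout, such as Fcgr4, are dim.

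Rgs5 read 11.19 and 11.12 in the Flox arrays and 9.06 and 8.86 in the knockout arrays on the log2 scale, while the NestinCre arrays held 11.05 and 11.13. Only the knockout arrays were low, and the groups did not overlap. Rgs5 fell 4.58-fold (log2 difference -2.19, SE 0.09, limma adjusted p = 0.0495). Its 4 probe sets were all lower, by -1.26 to -2.75. 2900052N01Rik, a transcript without an assigned function, read 10.14 and 10.21 in Flox, 8.20 and 8.003 in knockout, and 10.26 and 10.23 in NestinCre control. It fell 4.22-fold (log2 difference -2.08, SE 0.08, limma adjusted p = 0.0495), and its other probe sets were also lower, with the smallest difference at -1.50. Both calls were lost when any 1 array was left out, although the differences without 1 array stayed between -2.09 and -2.29 for Rgs5 and between -1.98 and -2.17 for 2900052N01Rik.

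**Figure D2:**
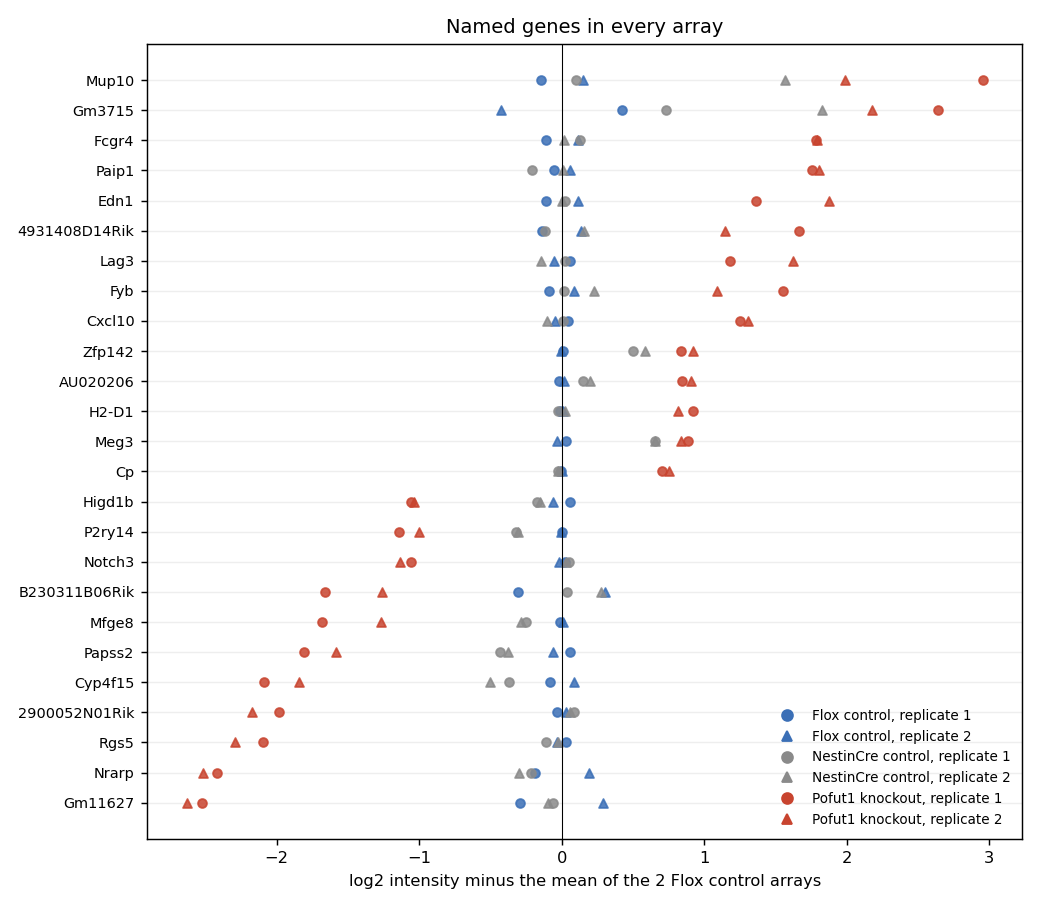
Rows are the 25 named genes and points are the 6 arrays, placed by log2 intensity minus the mean of the 2 Flox arrays. For Rgs5, Notch3 and Cxcl10 the NestinCre points sit with the Flox points and the knockout points stand apart, whereas for Meg3 the NestinCre points, 0.66 above the Flox mean on average, lie near the knockout points.

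The Notch pathway showed its lowest values among direct targets and in 1 receptor. Promoter sequences are given for the target genes with the largest differences that the RefSeq table of GRCm38.p6 held, namely Nrarp at chr2:25180508-25180757 on the plus strand and Hes5 at chr4:154960673-154960922 on the plus strand; Heyl was not in the table. Each is the 250 bases before the annotated start, and capitals mark TGGGAA, the core of the RBPJ site, searched on both strands.
Nrarp: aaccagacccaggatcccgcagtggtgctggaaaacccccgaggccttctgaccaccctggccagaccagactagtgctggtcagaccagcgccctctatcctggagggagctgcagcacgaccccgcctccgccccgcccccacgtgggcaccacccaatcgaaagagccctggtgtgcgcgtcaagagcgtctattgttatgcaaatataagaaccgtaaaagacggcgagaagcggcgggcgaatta
Hes5: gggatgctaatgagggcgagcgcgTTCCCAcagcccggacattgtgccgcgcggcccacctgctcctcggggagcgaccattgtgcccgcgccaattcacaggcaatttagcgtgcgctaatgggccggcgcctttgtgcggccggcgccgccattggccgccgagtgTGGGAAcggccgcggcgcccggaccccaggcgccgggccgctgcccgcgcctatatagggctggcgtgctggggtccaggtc
The Hes5 window holds 2 matches, which begin 226 and 82 bases before the start, the first on the opposite strand. The Nrarp window holds none, which says only that these letters are not in these bases. Of all 32851 RefSeq promoter windows of this length, which belong to 27025 genes, 7094 hold the motif (21.6%). Of the 10 listed Notch targets with a window, 6 hold it in at least 1 window. The list is thus counted by gene and the 21.6% by window.

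Nrarp encodes an ankyrin-repeat protein that binds the active Notch complex and limits it. Its log2 values were 10.14 and 10.52 in Flox control, 7.92 and 7.82 in knockout, and 10.12 and 10.03 in NestinCre control. Both knockout arrays were over 2 units below every other array. This is a difference of -2.47 (SE 0.14), or 5.53-fold lower, with a limma adjusted p of 0.0656. Hes5, a repressor through which Notch holds back neuronal differentiation, read 8.04 and 7.77 in Flox, 6.19 and 6.52 in knockout, and 7.70 and 7.45 in NestinCre control. The difference was -1.55 (SE 0.17, limma adjusted p = 0.116). Heyl, a related repressor of vessel wall cells and progenitors, read 7.51 and 7.36 in Flox and 6.18 and 6.29 in knockout. NestinCre control was between them at 7.01 and 6.83, and the difference from Flox was -1.20 (SE 0.10, limma adjusted p = 0.0822). The 3 Heyl probe sets were all below 0 but ran from -1.20 to -0.14, with 2 lower at an unadjusted p under 0.05.

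Of 17 measured Notch targets, 7 were lower at an unadjusted p under 0.05 and 0 higher. Among all 18193 genes, each read by its brightest probe set, 10% were lower and 4.75% higher by that rule. These shares are the background for every list count that follows. The median of the list was -0.25, against -0.04 over all genes. It was -0.11 against NestinCre control, and NestinCre minus Flox had a median of -0.24, so the list was also lower in the Cre control than in Flox. Besides Nrarp, Hes5 and Heyl the lower ones were Hes1 at -0.32 (SE 0.08), the glial transcription factor Sox9 at -0.39 (SE 0.14), Hey2 at -0.46 (SE 0.17) and Hes7 at -0.25 (SE 0.09). Without Flox replicate 1 the count of lower Notch targets was 4 instead of 7, while that over all 18193 genes was 1204 instead of 1828.

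Among the 4 receptors, Notch3, the receptor of pericytes and arterial smooth muscle, was the one below the unadjusted threshold. Its probe set with the smallest p read 8.48 and 8.44 in Flox, 7.40 and 7.32 in knockout, and 8.51 and 8.49 in NestinCre control. The knockout arrays stood alone, with a difference of -1.09 (SE 0.06, limma adjusted p = 0.0656), and the brighter probe set gave -1.09 with a wider SE of 0.20. Notch4, found in endothelium, differed by -0.44 (SE 0.21), Notch1 by 0.20 (SE 0.12) and Notch2 by 0.09 (SE 0.08), none of them below an unadjusted p of 0.05. The 8 ligands and ligand-like genes had a median of -0.01 and no member below that threshold in either direction. Their differences ran from -0.28 for Dll3 to 0.19 for Dlk1. Of 26 genes that modify or process Notch, such as fringe enzymes, proteases and Pofut1 itself, only Pofut1 was below the threshold.

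Genes of vessel wall cells were lower in knockout. Besides Rgs5, the pericyte gene Higd1b read 7.61 and 7.49 in Flox, 6.49 and 6.52 in knockout, and 7.38 and 7.40 in NestinCre control. The difference was -1.05 (SE 0.06, limma adjusted p = 0.0719). Pdgfrb, the receptor that recruits pericytes to vessels, read 9.35 and 8.97 in Flox, 8.24 and 8.26 in knockout, and 8.77 and 8.89 in NestinCre control, so the NestinCre arrays lay slightly below Flox (knockout minus Flox -0.91, SE 0.14, limma adjusted p = 0.129). Art3 differed by -1.10 (SE 0.09) and the mitochondrial pericyte genes Ndufa4l2 and Cox4i2 by -0.74 (SE 0.11) and -0.72 (SE 0.12). In all, 8 of 16 pericyte genes were lower at an unadjusted p under 0.05 and 0 higher, with a median of -0.37. The median was -0.17 against NestinCre control and -0.17 for NestinCre minus Flox. The potassium channel gene Kcnj8 differed by -0.38 (SE 0.18) between knockout and Flox and by -0.55 (SE 0.18) between NestinCre and Flox. In a whole-tissue sample, fewer cells of a type and less RNA per cell cannot be told apart.

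Of 16 smooth muscle genes, 7 were lower and 1 higher, with a median of -0.17. Tropomyosin 2 (Tpm2) read 9.21 and 9.08 in Flox and 8.54 and 8.48 in knockout, and all 4 of its probe sets were lower, by -0.46 to -0.64. The smooth muscle myosin Myh11 differed by -0.80 (SE 0.14), phospholamban (Pln) by -0.93 (SE 0.17), the light chain Myl9 by -0.52 (SE 0.10), the actin Acta2 by -0.81 (SE 0.23) and transgelin (Tagln) by -0.40 (SE 0.09). The exception that was higher, the olfactory receptor Olfr558, was dim and differed by 0.19 (SE 0.06). Endothelial and barrier genes had a median of 0.06, which turned to -0.07 without Flox replicate 2 and to -0.05 without knockout replicate 2. Of the 19, 1 was below the threshold, the thyroid hormone transporter Slco1c1 at -0.46 (SE 0.09), which astrocytes also express. Cldn5, the tight-junction protein of brain endothelium, differed by 0.06 (SE 0.24) and Pecam1 by 0.10 (SE 0.21), with overlapping arrays.

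Genes of interferon responses and of IgG receptors were higher in knockout. Promoters of some interferon-related genes are shown as chosen examples. They are Cxcl10 at chr5:92348890-92349139 on the minus strand, Fcgr4 at chr1:171018676-171018925 on the plus strand and Ifit1 at chr19:34640639-34640888 on the plus strand. The RefSeq table also held other genes given below, such as Trim30a, Ifit3 and Gbp3, whose promoters are not printed. Capitals mark the core of the interferon-stimulated response element, GAAA, any 2 bases and GAAA again, searched on both strands of the 250 bases before the start. Its outer letters can overlap TGGGAA, and the motifs were searched separately.
Cxcl10: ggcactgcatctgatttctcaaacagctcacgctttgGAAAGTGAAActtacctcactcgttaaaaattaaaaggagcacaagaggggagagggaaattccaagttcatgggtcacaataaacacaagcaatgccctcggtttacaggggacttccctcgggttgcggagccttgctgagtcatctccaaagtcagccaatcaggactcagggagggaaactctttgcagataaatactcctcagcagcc
Fcgr4: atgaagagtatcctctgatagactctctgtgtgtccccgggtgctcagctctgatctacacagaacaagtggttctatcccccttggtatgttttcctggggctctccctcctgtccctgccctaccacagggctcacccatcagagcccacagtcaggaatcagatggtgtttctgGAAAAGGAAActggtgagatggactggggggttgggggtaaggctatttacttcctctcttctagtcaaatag
Ifit1: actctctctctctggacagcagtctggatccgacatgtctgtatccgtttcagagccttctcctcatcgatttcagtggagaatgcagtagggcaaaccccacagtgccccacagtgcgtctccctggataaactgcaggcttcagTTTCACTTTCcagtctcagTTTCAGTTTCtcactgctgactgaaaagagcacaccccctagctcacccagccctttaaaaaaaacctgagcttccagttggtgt
The first matched bases lie 213 before the start in Cxcl10, 73 in Fcgr4, and 104 and 85 in Ifit1. Of all windows of this length 978 hold the motif (2.98%). Among listed genes with a window, it occurs in 8 of 19 interferon-response genes and in 8 of 9 interferon-induced GTPases. A gene counts here if any of its windows holds the motif, whereas the 2.98% is a share of windows. These counts describe sequence and not binding.

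Cxcl10, a chemokine that draws activated T cells, read 6.40 and 6.31 in Flox, 7.61 and 7.67 in knockout, and 6.37 and 6.26 in NestinCre control. Only the knockout arrays were high, with a difference of 1.28 (SE 0.07), or 2.43-fold (limma adjusted p = 0.0656). Fcgr4, an activating IgG receptor of myeloid cells, read 5.80 and 6.03 in Flox, 7.70 and 7.71 in knockout, and 6.04 and 5.94 in NestinCre control. It was 3.45-fold higher (log2 difference 1.79, SE 0.09, limma adjusted p = 0.0656). Usp18, the protease that removes ISG15 and damps interferon signalling, read 6.80 and 6.88 in Flox and 7.77 and 8.02 in knockout, a difference of 1.05 (SE 0.10, limma adjusted p = 0.108).

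Of 25 interferon-response genes 15 were higher and 1 lower at an unadjusted p under 0.05, with a median of 0.39. Trim30a differed by 1.01 (SE 0.15), Oasl2 by 0.83 (SE 0.14), Ifit3 by 0.76 (SE 0.15) and Ifi27 by 0.75 (SE 0.11). Ifit1 read 8.04 and 8.09 in Flox and 8.55 and 8.54 in knockout, while NestinCre control was the lowest group at 7.66 and 7.495. The nucleotide kinase Cmpk2 was the lower member at -0.46 (SE 0.15). Of 9 interferon-induced GTPases, 5 were higher and 0 lower, among them Gbp3 at 0.52 (SE 0.08) and Iigp1 at 0.73 (SE 0.16). These GTPases and the class I genes are families of near-identical copies, so the probe sets may share signal between members. Of 14 class I presentation genes, 6 were higher and 2 lower. The transactivator Nlrc5 differed by 0.93 (SE 0.14) and H2-K1 by 0.58 (SE 0.09), while the peptidase Erap1 was lower by -0.49 (SE 0.11). For H2-D1 the probe set with the smallest p gave 0.87 (SE 0.06, limma adjusted p = 0.0810), the brightest 0.54 (SE 0.08), and of 9 probe sets 7 were above 0 and 2 below.

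Of 8 Fc receptors and signalling partners, 6 were higher and 0 lower, with a median of 0.64. Fcgr3 read 8.92 and 9.03 in Flox and 9.79 and 9.99 in knockout (difference 0.92, SE 0.09), and the high-affinity receptor Fcgr1 7.32 and 7.46 against 8.12 and 8.22 (0.78, SE 0.08). The inhibitory receptor Fcgr2b differed by 0.70 (SE 0.14), the shared gamma chain Fcer1g by 0.58 (SE 0.11) and the phosphatase Inpp5d by 0.41 (SE 0.06). Both knockout arrays were above both Flox arrays for each of these, as they were for 15.5% of all genes. The 2 knockout arrays averaged 0.406 and 0.431 above the 6-array mean for the median member of the list, and the 4 control arrays -0.14 to -0.23.

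Markers of microglia as a cell type had a smaller median difference than these groups. Of 21 microglia identity genes, 2 were higher and 1 lower (4 without knockout replicate 2), with a median of 0.07; for the median member the knockout arrays stood 0.02 and 0.11 above the 6-array mean and the Flox arrays 0.03 above it each. Cx3cr1 read 8.91 and 9.04 in Flox and 8.91 and 9.14 in knockout, and P2ry12 and Tmem119 differed by 0.07 (SE 0.14) and -0.05 (SE 0.13). Aif1, which encodes the calcium-binding protein Iba1, was higher by 0.61 (SE 0.08). Of 22 genes of activated microglia, 9 were higher and 1 lower: the beta-glucan receptor Clec7a read 5.84 and 5.85 in Flox and 7.01 and 6.86 in knockout (1.09, SE 0.09), the integrin Itgax differed by 0.65 (SE 0.07), and Apoe was lower at -0.60 (SE 0.14). The count of higher genes was 4 without Flox replicate 2 and 5 without knockout replicate 2. Among 19 genes of perivascular macrophages and leukocytes, 5 were higher and 1 lower. The count of higher genes was 2 without Flox replicate 1 or knockout replicate 2, and 3 without knockout replicate 1 or with sex as a covariate. The leukocyte phosphatase Ptprc differed by 0.70 (SE 0.10), Cd84 by 0.76 (SE 0.07) and Cd4 by -0.51 (SE 0.08).

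Other named genes higher in knockout belong in part to these groups. Lag3, an inhibitory receptor of lymphocytes also found in brain, read 6.85 and 6.74 in Flox and 7.98 and 8.42 in knockout, a difference of 1.40 (SE 0.16). The adaptor Fyb of leukocytes differed by 1.32 (SE 0.18) and the vasoconstrictor endothelin 1 (Edn1) by 1.62 (SE 0.19), with NestinCre arrays at the Flox level. Ceruloplasmin (Cp), a ferroxidase, differed by 0.73 (SE 0.05), and all 8 of its probe sets were above 0. Among chemokines and cytokines, 7 of 26 were higher and 4 lower, the latter including Ccl9 at -1.03 (SE 0.14), Cxcl14 at -0.61 (SE 0.06), Il33 at -0.38 (SE 0.08) and Il18 at -0.36 (SE 0.07).

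Some large positive differences were not shared by all probe sets of the gene. Paip1, which binds poly(A)-binding protein, read 8.25 and 8.37 in Flox and 10.07 and 10.11 in knockout for 1 probe set (1.78, SE 0.09, limma adjusted p = 0.0656). Of its 4 probe sets 2 were higher at an unadjusted p under 0.05 and 2 lay below 0 without passing it, the brightest among the latter at -0.10 (SE 0.06). For Zfp142 the named probe set gave 0.88 (SE 0.06) and the brightest of 7 gave -0.25 (SE 0.14). Mup10, one of the closely similar major urinary protein genes, read 5.34 and 5.64 in Flox, 8.44 and 7.48 in knockout, and 5.59 and 7.06 in NestinCre control, so that 1 NestinCre array was also high. The predicted gene Gm3715 had the same shape, with 7.43 and 6.58 in Flox, 9.64 and 9.18 in knockout, and 7.74 and 8.83 in NestinCre control. For both genes the higher knockout array and the higher NestinCre array were the male ones. With sex as a covariate the Mup10 difference was 1.865 instead of 2.47, and that of Gm3715 was 2.02 instead of 2.41. The part of sex in these differences was not tested further. The unassigned transcripts AU020206 and 4931408D14Rik differed by 0.88 (SE 0.06) and 1.41 (SE 0.21).

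Many astrocyte genes were lower in knockout, while Gfap was higher. Of 25 genes of homeostatic astrocytes, 12 were lower and 1 higher, with a median of -0.24. Papss2, which makes the sulphate donor for proteoglycans, read 8.95 and 8.84 in Flox, 7.09 and 7.31 in knockout, and 8.46 and 8.52 in NestinCre control. Its difference was -1.70 (SE 0.10, limma adjusted p = 0.0656). The 4 Papss2 probe sets were all below 0 but ran from -1.70 to -0.025, with 2 lower at an unadjusted p under 0.05. The cytochrome P450 gene Cyp4f15 read 7.58 and 7.74 in Flox, 5.57 and 5.81 in knockout, and 7.29 and 7.16 in NestinCre control (-1.97, SE 0.12, limma adjusted p = 0.0697). For both genes the NestinCre arrays lay between the other groups, nearer to Flox. The ectonucleotidase Entpd2 differed by -1.32 (SE 0.09), monoamine oxidase B (Maob) by -0.74 (SE 0.05), the glycogen regulator Ppp1r3c by -0.69 (SE 0.07) and the glutamate transporter Slc1a2 by -0.24 (SE 0.05). The UDP-sugar receptor P2ry14 read 8.007 and 7.999 in Flox and 6.86 and 7.001 in knockout (-1.07, SE 0.07, limma adjusted p = 0.0740).

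Gfap, the filament protein that rises in reactive astrocytes, read 11.20 and 11.16 in Flox, 11.90 and 12.07 in knockout, and 11.13 and 10.999 in NestinCre control. The difference was 0.81 (SE 0.09, limma adjusted p = 0.116), and its 3 probe sets were all higher, by 0.67 to 0.83. The water channel Aqp4 was the homeostatic gene that was higher, by 0.33 (SE 0.06). In the list of reactive astrocytes 13% were higher and 8.7% lower at an unadjusted p under 0.05. Over all 18193 genes these shares were 4.75% and 10%. Of 23 genes of reactive astrocytes, 3 were higher, Gfap among them, and 2 lower (6 without Flox replicate 2), with a median of -0.06. Mfge8, a bridge for the uptake of dying cells that astrocytes make in quantity, read 11.39 and 11.40 in Flox, 9.71 and 10.13 in knockout, and 11.14 and 11.11 in NestinCre control. It was 2.78-fold lower (log2 difference -1.48, SE 0.14, limma adjusted p = 0.108).

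Some genes were read by several probe sets that all differed in one direction. Of 4315 genes with at least 3 probe sets, 28 had all of them lower at an unadjusted p under 0.05 and 12 all higher. Phgdh, the first enzyme of serine synthesis and an astrocyte product, was lower in all 4 probe sets, by -0.48 to -0.83. The BMP antagonist Chrdl1 was lower in 4, by -0.44 to -1.70, and Tm2d2 in 8, by -0.15 to -0.54. Genes of fatty acid handling, Cpt1a, Acaa2 and Fads2, were lower in 3 probe sets each, with medians of -0.68, -0.75 and -0.52; they were picked out after their values were seen.

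Neural stem and progenitor genes, the cells the study addresses, were lower in 7 of 23 cases and higher in 0, with a median of -0.17. Rlbp1, a retinoid carrier of radial glia, read 8.92 and 8.45 in Flox, 7.58 and 7.78 in knockout, and 8.40 and 8.36 in NestinCre control (-1.01, SE 0.17). The matrix protein Thbs4 differed by -0.80 (SE 0.17), and the transcription factors Sox21, Sox2 and Eomes by -0.55 (SE 0.12), -0.42 (SE 0.13) and -0.38 (SE 0.05). For Eomes, a marker of intermediate progenitors, the NestinCre arrays at 8.67 and 8.65 were nearer to the knockout arrays at 8.56 and 8.58 than to Flox at 8.95 and 8.96. Among 18 neuroblast genes 3 were lower (16.7%, against 10% of all 18193 genes). They were Dlx1 at -0.36 (SE 0.07), Igfbpl1 at -0.61 (SE 0.15) and Dlx5 at -0.26 (SE 0.08), and Dlx1 was as low in NestinCre control.

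Of 24 proliferation genes 6 were higher and 2 lower, with a median of 0.09. Mki67 differed by 0.42 (SE 0.11), Top2a by 0.33 (SE 0.12) and Cdk1 by 0.37 (SE 0.13), while the replication genes Mcm6 and Mcm5 were lower at -0.43 (SE 0.12) and -0.34 (SE 0.12). The proliferation list held 0 higher genes without knockout replicate 2, 2 without knockout replicate 1 or Flox replicate 1, 3 without Flox replicate 2 and 1 with sex as a covariate. Of 18 genes of oligodendrocyte precursors, 2 were higher and 2 lower (11.1% each), with a median of 0.01. Over all 18193 genes 4.75% were higher and 10% lower, so the lower count was near the share of all genes. The matrix proteoglycan Vcan differed by 0.70 (SE 0.12) and Enpp6, of newly forming oligodendrocytes, by 0.57 (SE 0.21), against -0.45 (SE 0.13) for the proteoglycan Bcan and -0.30 (SE 0.10) for C1ql1. Of 16 myelin genes 3 were lower and 0 higher; the count was 0 without Flox replicate 1 and 1 without Flox replicate 2 or knockout replicate 1. They were Mog at -0.29 (SE 0.09), Fa2h at -0.34 (SE 0.10) and Opalin at -0.74 (SE 0.25). Mbp, the main myelin protein, differed by -0.06 (SE 0.06).

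Wnt pathway genes were lower in 10 of 24 cases and higher in 1, with a median of -0.22. Over all 18193 genes 10% were lower and 4.75% higher at an unadjusted p under 0.05. The median of the Wnt list was -0.07 against NestinCre control and -0.14 for NestinCre minus Flox. This list was thus also lower in the Cre control than in Flox. The receptor Fzd2 read 9.78 and 10.42 in Flox, 8.82 and 8.72 in knockout, and 9.92 and 10.01 in NestinCre control (-1.33, SE 0.21, limma adjusted p = 0.136). The secreted inhibitors Sfrp1 and Sfrp5 differed by -0.55 (SE 0.08) and -0.86 (SE 0.24) and the agonist Rspo1 by -0.58 (SE 0.09), whereas the Rspo receptor Lgr5 was higher by 0.62 (SE 0.15). Without knockout replicate 1 the Wnt pathway list held 4 lower genes. Of 22 genes of BMP, TGF-beta and hedgehog signalling, 4 were lower (18.2%) and 1 higher (4.55%) at an unadjusted p under 0.05. Their median was -0.05, against -0.04 over all genes, and their differences ran from -0.63 to 0.68. The hedgehog genes Gli3 and Gli2 in that list differed by -0.45 (SE 0.11) and -0.63 (SE 0.20). Choroid plexus genes were lower in 6 of 21 cases (3 without Flox replicate 2 or knockout replicate 1), with a median of -0.27, among them the potassium channel subunit Kcne2 at -0.51 (SE 0.12) and klotho (Kl) at -0.37 (SE 0.11). Transthyretin (Ttr), the main product of this tissue, differed by -0.02 (SE 0.06). All 16 measured ependymal genes were below 0, as were 11392 of the 18193 genes, with a median of -0.17. Of them 3 were at an unadjusted p under 0.05, which became 1 without knockout replicate 1 or with sex as a covariate and 6 without knockout replicate 2.

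**Figure D3:**
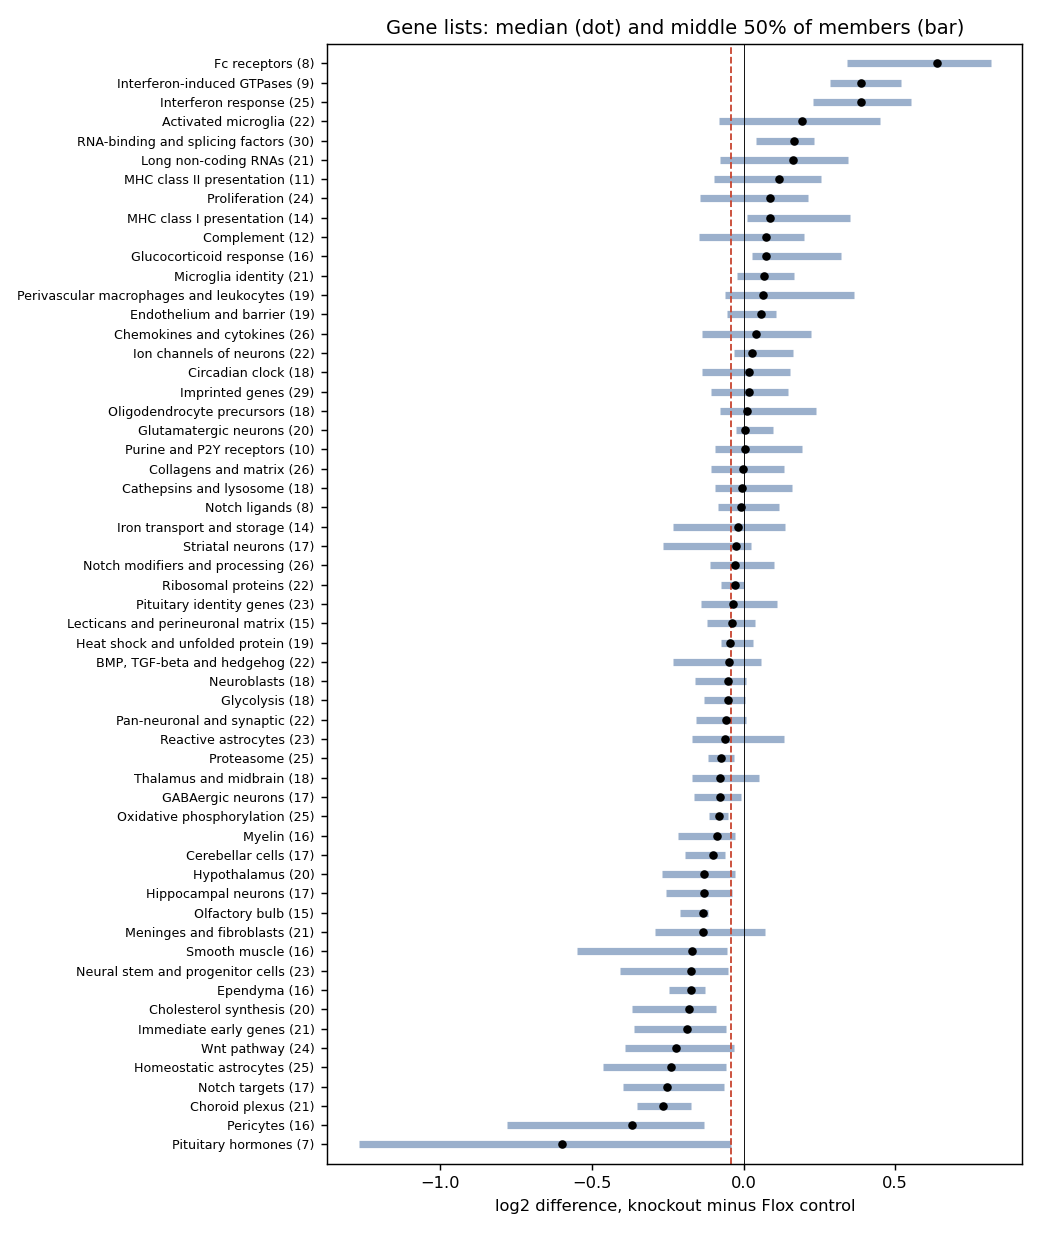
Dots give the median log2 difference, knockout minus Flox control, of each gene list with at least 7 measured genes (number in brackets), bars span the middle 50% of its members, and the dashed line is the median of all 18193 genes, -0.04. The list of sex-linked genes is not drawn. Fc receptors at 0.64 and both interferon lists at 0.39 stand highest, and pericytes at -0.37 and pituitary hormones at -0.60 lowest.

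For some genes the Flox arrays stood apart from all 4 arrays that carried Cre. Meg3, an imprinted long non-coding RNA, read 10.60 and 10.54 in Flox, 11.45 and 11.40 in knockout and 11.23 and 11.23 in NestinCre control for the probe set with the smallest p. The knockout minus Flox difference was 0.86 (SE 0.06, limma adjusted p = 0.0745), and the NestinCre minus Flox difference 0.66 (SE 0.06). All 11 Meg3 probe sets were higher in knockout than in Flox, by 0.34 to 0.97, and in all 11 both NestinCre arrays also lay above both Flox arrays. The same held for the 7 probe sets of Malat1, a nuclear non-coding RNA (0.28 to 0.99), and the 7 of Pnisr, a splicing-related protein (0.27 to 0.72). For Srek1, a splicing regulator, all 5 probe sets were higher in knockout than in both other groups, and 3 were also higher in NestinCre control than in Flox.

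**Figure D4:**
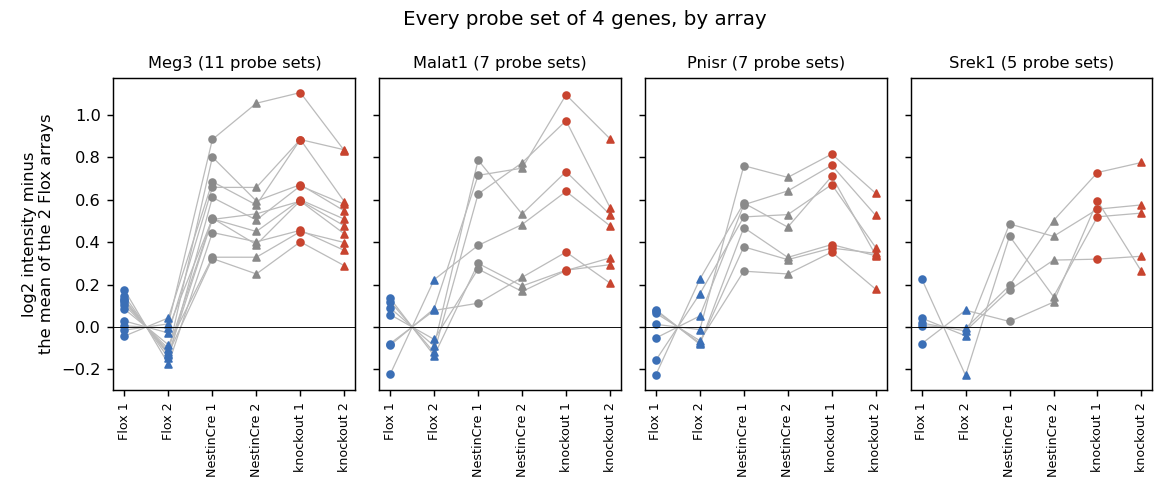
Each line is a probe set of Meg3, Malat1, Pnisr or Srek1, drawn over the 6 arrays as log2 intensity minus the mean of the 2 Flox arrays. For Meg3 the median probe set stood 0.51 and 0.51 above Flox in the NestinCre arrays and 0.60 and 0.51 above it in the knockout arrays; for Srek1 it stood 0.20 and 0.32 above Flox in NestinCre and 0.56 and 0.54 in knockout.

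Of 21 long non-coding RNAs, 10 were higher and 2 lower, with a median of 0.16 against Flox and -0.03 against NestinCre control. Neat1, the scaffold of nuclear paraspeckles, read 10.17 and 10.17 in Flox, 10.85 and 10.52 in knockout, and 10.82 and 10.59 in NestinCre control. Of 30 RNA-binding and splicing factors, 11 were higher and 1 lower, with medians of 0.17 against Flox and 0.03 against NestinCre control; Clk4 differed by 0.44 (SE 0.06) and Srsf5 by 0.56 (SE 0.10). Without Flox replicate 2 the count of higher long non-coding RNAs was 4, and without knockout replicate 1 it was 5, while that of RNA-binding and splicing factors was 6 without knockout replicate 1 and 7 with sex as a covariate. A measure of RNA integrity and labelling, the 5' minus 3' signal of actin, was -1.41 and -1.04 in Flox, -1.19 and -1.17 in knockout and -1.08 and -1.15 in NestinCre control, so 1 Flox array was the lowest of the 6. The part of RNA quality in these differences was not tested.

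Of 20 cholesterol synthesis genes, 9 were lower and 0 higher at an unadjusted p under 0.05, with a median of -0.18 against Flox and 0.01 against NestinCre control. The sterol demethylase Cyp51 read 11.18 and 11.13 in Flox, 10.68 and 10.78 in knockout, and 10.86 and 10.99 in NestinCre control. Mevalonate decarboxylase (Mvd) read 9.03 and 8.85 in Flox, 8.41 and 8.52 in knockout, and 8.57 and 8.37 in NestinCre control, where the NestinCre arrays were level with knockout. The activity-regulated gene Fosb had that shape too, with 8.36 and 8.22 in Flox, 7.85 and 7.62 in knockout, and 7.89 and 7.82 in NestinCre control.

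Pituitary hormone transcripts marked the Flox arrays. Growth hormone (Gh) read 7.87 and 9.40 in Flox, 6.91 and 6.54 in knockout, and 5.92 and 5.84 in NestinCre control, and prolactin (Prl) 7.28 and 9.58 in Flox, 5.66 and 5.78 in knockout, and 5.52 and 5.395 in NestinCre control. Flox replicate 2 was the highest array for both genes, and every Flox array lay above every other array. Knockout minus Flox was -1.91 (SE 0.50, limma adjusted p = 0.205) for Gh and -2.71 (SE 0.74, limma adjusted p = 0.211) for Prl. Without Flox replicate 2 the log2 difference, knockout vs Flox control, was -1.15 for Gh and -1.56 for Prl, and without Flox replicate 1 it was -2.68 and -3.86. The 4 Gh probe sets were all lower, by -1.19 to -2.08.

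Of the other hormones, the shared subunit Cga differed by -0.60 (SE 0.18) and the precursor Pomc, which the hypothalamus also makes, by -0.62 (SE 0.21). Tshb differed by 0.08 (SE 0.10), Lhb by -0.08 (SE 0.06) and Fshb by -0.01 (SE 0.05); Fshb was brighter than only 7.9% of probe sets. Thus 4 of 7 hormones were lower at an unadjusted p under 0.05; the count was 1 without knockout replicate 2, and 2 without knockout replicate 1 or with sex as a covariate. Of 23 pituitary identity genes, such as transcription factors, 2 were higher and 0 lower, with a median of -0.04. For the median hormone the Flox arrays stood 0.23 and 0.71 above the 6-array mean and the knockout arrays 0.04 below it each. Over all 18193 genes 4.75% were higher and 10% lower at an unadjusted p under 0.05. Hypothalamic genes were lower in 5 of 20 cases (3 without either Flox array), Pomc among them, with the transcription factor Otp at -0.49 (SE 0.11) and orexin (Hcrt) at -0.42 (SE 0.16). The part of pituitary tissue in the other differences between knockout and Flox was not tested.

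**Figure D5:**
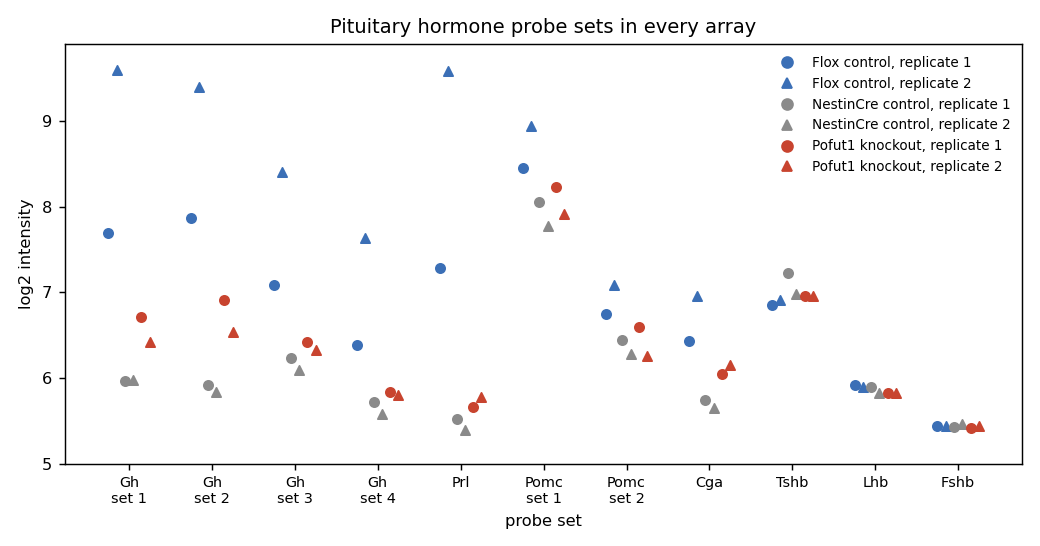
Points are log2 intensities of the 11 probe sets of 7 pituitary hormones in each of the 6 arrays. The Flox arrays reach 9.40 for Gh set 2 and 9.58 for Prl, whereas the knockout and NestinCre arrays stay at or below 6.91 and 5.78 in those probe sets, and Tshb, Lhb and Fshb are level.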

How the data were processed

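Per the labels' protocols, Trizol and a silica column gave total RNA, of which 25 ng entered the Ovation amplification that adds biotin. Values as deposited are intensities on a linear scale, 1 per array and probe set. The submitters' processing notes name GCOS and RMA without version or role; RMA gives all arrays a common distribution, which shrinks differences at low brightness and hides a shift common to most genes. No genome build is named for the annotation. From the deposited intensities, log2 was computed. The 64 control probe sets were left out, and 45037 entered limma 3.58.1 (R 4.3.3): a mean for each of the 3 groups over 6 arrays, eBayes without trend (4.94 total degrees of freedom), and Benjamini-Hochberg adjustment over all probe sets. A log2 difference is knockout minus Flox control and SE is its standard error. The step was tested on simulated data. The number of arrays limits the precision.

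Of the tested probe sets 34945 had 1 gene symbol in the platform annotation, 932 several and 9160 none; 34741 matched the RefSeq gene table of GRCm38.p6. Lists were read by the brightest 1-symbol probe set of each of 18193 genes and named genes by their probe set with the smallest p. The members, the 60 lists and the alternatives were chosen with earlier results of these data known, so no list is independent evidence. Named genes were Pofut1 and, per direction, the 8 with the smallest p and the 8 with the largest difference among probe sets with 1 symbol, an unadjusted p under 0.01, arrays that do not overlap and a brighter mean above the median of all values. Also named were up to 4 members of a list by smallest p, all Notch receptors and pituitary hormones, and up to 6 genes per direction whose 3 or more probe sets all had an unadjusted p under 0.05 in one direction; further genes were named after their values were seen, as examples of their lists. Motifs were searched in the 250 bases before each RefSeq start.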

Additional observations from a re-analysis of the deposited data

Results flagged for a closer look

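Among the 64 control probe sets, which were kept out of the comparisons, 2 bright ones were higher in knockout at an unadjusted limma p under 0.05. Both knockout arrays were above both Flox arrays for each. Controls outside that threshold could lie higher too: the mean of the BioB control probe sets was 10.25 and 10.24 in Flox and 10.49 and 10.66 in knockout. In NestinCre control that mean was 11.315 and 10.27. The murine B1 repeat probe set, which reads a short interspersed element present in many transcripts, was 11.41 and 11.47 in Flox, 11.78 and 11.68 in knockout, and 11.76 and 11.59 in NestinCre control, a knockout minus Flox difference of 0.29 (SE 0.08, limma adjusted p = 0.22). The middle probe set of 18S ribosomal RNA read 12.54 and 12.57 in Flox, 12.70 and 12.75 in knockout, and 12.59 and 12.59 in NestinCre control, a difference of 0.17 (SE 0.05, limma adjusted p = 0.25). For the B1 repeat the Flox arrays were below all 4 others, and for 18S the knockout arrays were above all 4 others.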

How the results depend on the processing

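Limma's count of 2 probe sets past the threshold depended on the setting. It was 0 with quantile normalization repeated (7112 at an unadjusted p under 0.05), with log2 of the intensity plus 16, with only the 4 arrays compared, with sex as a covariate (5511 at an unadjusted p under 0.05) and when any 1 array was left out (0 to 0 over the 6 fits, with 4585 to 8483 at an unadjusted p under 0.05). It was 9 with arrays centred on their medians, 23 in the brighter part (above the median of all probe sets), 81 above the 25th percentile of brightness, 162 with limma-trend (108 higher and 54 lower), 325 with limma-trend and robust fitting and 20 with 1 probe set per gene. With control probe sets kept it stayed at 2. For knockout minus Flox, the fits without 1 NestinCre array gave the same result as the fit with only the 4 arrays compared. A lone NestinCre array adds nothing to the estimate of the spread, so these are not separate checks. Of the 25 named genes 20 passed with limma-trend and 12 in the brighter part, where 10 were left out. With sex as a covariate, Rgs5 was at -2.27 and Nrarp at -2.47. The 215 probe sets with an at least 2-fold difference became 113 in the brighter part and 65 with 1 probe set per gene, and 183 to 421 when 1 knockout or Flox array was left out (348 without Flox replicate 2, 421 without knockout replicate 2). Fewer genes were tested in the filtered and the gene-level fits. With 1 array left out, the fit had fewer residual degrees of freedom. Where that was a knockout or Flox array, the 2-fold rule was also looser, because 1 array of that group was compared with 2. For the other settings the cause was not tested. The Pofut1 difference kept its direction in every setting run, and those of Gh and Prl in every one but the brighter part, where their probe sets were left out.

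The replicate numbers share only a number. Deviations of same-numbered arrays from their group means correlated at -0.25 between Flox and knockout, 0.22 between Flox and NestinCre control and -0.18 between knockout and NestinCre control. With the replicate block there were 0 calls, with 6334 at an unadjusted p under 0.05. With the knockout numbers crossed in the replicate block, a setting chosen after seeing the data, there were 0 calls and 8869 at an unadjusted p under 0.05.

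With 1 probe set per gene, Paip1 turned to -0.10 and Zfp142 to -0.25. Of the 60 lists, 19 had a median that turned in at least 1 setting when read to 3 decimals, none of them beyond 0.115 in size at first. Among list medians, chemokines and cytokines turned to -0.26, proliferation to -0.041 and sex-linked genes to -0.12 in the brighter part, and perivascular macrophages and leukocytes to -0.00011 above the 25th percentile. When 1 array was left out, the median of Notch modifiers ran from -0.07 to 0.017 (the latter without knockout replicate 2), that of complement genes from -0.049 (without Flox replicate 1) to 0.078 and that of heat shock genes from -0.046 to 0.015 (without Flox replicate 1; 0.011 without knockout replicate 2). RMA intensities carry no detection call, so dim probe sets have no stated limit of detection.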

Other observations

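Lists of neuronal genes showed small median differences. Over all 18193 genes 4.75% were higher and 10% lower at an unadjusted p under 0.05, against 0% and 9.09% of pan-neuronal and synaptic genes. Of 22 pan-neuronal and synaptic genes 2 were lower at an unadjusted p under 0.05 (4 without Flox replicate 2, and 0 without Flox replicate 1 or knockout replicate 1) and 0 higher, with a median of -0.06, and the neuronal markers Snap25 and Syt1 differed by 0.02 (SE 0.06) and 0.00 (SE 0.06). Glutamatergic neuron genes had a median of 0.00, with 1 of 20 higher, 2 lower and the highest at 0.875. GABAergic neuron genes had a median of -0.08, with 0 of 17 higher and 1 lower. Of 22 neuronal ion channel genes 4 were higher (18.2%) and 1 lower. Hippocampal genes were lower in 3 of 17 cases (17.6%) and higher in 1. All 15 olfactory bulb genes were below 0, with 3 lower (20%) at an unadjusted p under 0.05. Of 25 oxidative phosphorylation genes 23 were below 0, as were 11392 of all 18193 genes, with a median of -0.08. None was below that threshold in limma, against 4 lower without knockout replicate 2, 3 without Flox replicate 2 and 1 without Flox replicate 1. Matrix genes differed both ways: of 26 collagens and matrix genes 5 were higher, among them Col11a1 at 0.60 (SE 0.13) and Col6a1 at 0.46 (SE 0.11), and 1 lower, Sparc at -0.27 (SE 0.08); the higher count was 3 without Flox replicate 2 or either knockout array, and the lower count was 4 without Flox replicate 2 and 0 without Flox replicate 1 or knockout replicate 1. Of 21 genes of meninges and fibroblasts 5 were lower (2 without knockout replicate 1 and 3 without Flox replicate 1), among them the retinoic acid synthase Aldh1a2 at -0.63 (SE 0.08), and 1 higher, decorin (Dcn) at 0.37 (SE 0.12); for Aldh1a2 the NestinCre arrays, at 8.12 and 8.07, were as low as the knockout arrays, at 7.95 and 8.10.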
